A study of Mus musculus with 10 samples.

Results

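The 10 genes described here carry or receive the signals that build and maintain blood vessels. They are the growth factors Vegfa and Vegfb, the receptors Kdr (VEGFR2) and Flt1 (VEGFR1), the angiopoietin receptor Tek (Tie2) and its relative Tie1, the coreceptor Eng (endoglin), the surface and junction proteins Pecam1 (CD31) and Cdh5 (VE-cadherin), and the clotting protein Vwf. They were chosen by name, as 10 of 37948 gene symbols in a table of 92251 transcript rows. Each was taken at the row with the highest mean over all libraries. Poly-A RNA was sequenced from the gastrocnemius muscle of male C57BL/6 mice, 5 young (6 months) and 5 aged (24 months), with 1 library for each mouse. All 10 mice share strain, sex and muscle, and no allele or treatment was given beyond age. Values are log2 FPKM, a fragment count scaled by transcript length and library size, and an FPKM under 1 is listed as 0. The comparison asks whether the vessel genes of this muscle differ between the ages.

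Vegfa is secreted by muscle fibers and other cells, and it drives vessel growth mainly through Kdr on endothelial cells, while Flt1 binds the same ligand more tightly and signals less, and Vegfb binds Flt1 but not Kdr. Tek receives the angiopoietins, which steady the vessel wall, and Tie1 is an orphan partner of Tek. Cdh5, Pecam1, Eng and Vwf are made by endothelial cells and are commonly used to mark them, although platelets and their precursors also hold Vwf and Pecam1, and some leukocytes hold Pecam1 and Eng.

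In RefSeq annotation of GRCm38.p6, the same coordinates as the mm10 build used for mapping, Vegfa lies on chromosome 17 (46016993 to 46032377), Vegfb on 19 (6982472 to 6987651), Kdr on 5 (75932827 to 75979072), Flt1 on 5 (147561604 to 147726438) and Tek on 4 (94739086 to 94874976). Tie1 lies on chromosome 4 (118471191 to 118489849), Eng on 2 (32646595 to 32682669), Pecam1 on 11 (106654213 to 106715281), Cdh5 on 8 (104101613 to 104144504) and Vwf on 6 (125552948 to 125686679). RefSeq promoter windows matched 7 of the 10 genes in 8 windows, and those of Pecam1, Cdh5 and Vwf are not shown here. The 250 bases before each start were searched on both strands for ACGTG, the core that hypoxia-inducible factors bind, and for GGAAGT, a core of the ETS factors that act in endothelial genes. ACGTG was in 1 of the 8 windows, the second of Vegfa, which lies inside the gene and holds an annotated exon, against 16.6% of all 32851 windows. GGAAGT was in 4 of the 8, those of Kdr, Flt1, Tie1 and Eng, against 19.7% of all. Of these, the windows of Kdr and Tie1 hold an annotated exon, and those of Kdr and Flt1 lie inside the gene. A match is a description of the letters and not a binding site. The 3 windows that hold no annotated exon and no base of their RefSeq gene are shown to let the ligands Vegfa and Vegfb be read beside the receptor Eng. Each is 250 bases long, on GRCm38.p6, written 5′ to 3′ on the gene's strand, with a GGAAGT match on either strand in capitals.
Vegfa (chr17:46032378-46032627, minus strand): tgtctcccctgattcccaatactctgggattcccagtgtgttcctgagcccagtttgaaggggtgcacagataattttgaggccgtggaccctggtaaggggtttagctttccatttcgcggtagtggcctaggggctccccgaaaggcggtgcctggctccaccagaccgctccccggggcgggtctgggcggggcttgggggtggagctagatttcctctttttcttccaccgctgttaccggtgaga
Vegfb (chr19:6987652-6987901, minus strand): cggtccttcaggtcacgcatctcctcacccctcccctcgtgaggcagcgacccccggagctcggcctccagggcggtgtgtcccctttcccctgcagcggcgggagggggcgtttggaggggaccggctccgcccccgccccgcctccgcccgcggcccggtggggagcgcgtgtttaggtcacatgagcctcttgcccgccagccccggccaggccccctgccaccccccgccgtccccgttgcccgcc
Eng (chr2:32646345-32646594, plus strand): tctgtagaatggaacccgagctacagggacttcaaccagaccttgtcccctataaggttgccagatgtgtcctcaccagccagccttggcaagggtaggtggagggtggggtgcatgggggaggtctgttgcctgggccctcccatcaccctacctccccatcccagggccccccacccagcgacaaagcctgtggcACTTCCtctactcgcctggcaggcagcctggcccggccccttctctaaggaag
Of these windows, that of Eng holds the match, at position -53 from the start and on the opposite strand, and those of Vegfa and Vegfb hold neither core.

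The depth of the libraries, recovered from the steps between the deposited values, was between 19886361 and 34554354 reads. Both libraries numbered 3 stood apart from the others. Each had the greatest depth of its age and yet the fewest rows above 0, with 35024 in young library 3 and 29878 in aged library 3, while the other 8 had 38855 to 43296. Of the 38059 rows with a mean FPKM of at least 1, aged library 3 was below the other 4 aged libraries in 61.4%, and young library 3 was below the other 4 young libraries in 45.4%. Differences of the 10 genes that turned in sign without both libraries numbered 3, which leaves 4 against 4, are therefore given both ways, as are the limma calls of named list genes that changed. The median difference of all rows tested, aged minus young, was 0.03 on the log2 scale over 10 libraries and 0.13 without that pair. The summed FPKM of 8 muscle fiber markers was between 83557 and 102079 in young and between 77873 and 90473 in aged libraries.

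No gene of the 10 passed a threshold for a difference between young and aged muscle over the 10 libraries, by limma without a block or by the exact permutation test. The means of 5 were higher and those of 5 were lower in aged muscle, with a median log2 difference of 0.03 and a range from -0.38 (Vegfa) to 0.38 (Eng). limma gave 0 of the 10 an adjusted p under 0.05, where 0.00788% of all rows tested passed. It gave 0 an unadjusted p under 0.05, where 3.89% of all rows were higher and 0.738% were lower by that rule. An exact permutation p under 0.05 was found for 0, where 5.16% of all rows were higher and 1.28% were lower. In 0 of the 10 were the libraries of the ages without overlap, which was so for 1.54% of all rows. None met 2-fold criteria, a log2 difference over 1 with an unadjusted p under 0.05, which 0.545% of the 46432 rows above 0 in any library met. Without both libraries numbered 3, means were higher in aged muscle for 8 of the 10 and for 72.1% of all rows tested, with a median log2 difference of 0.15 beside 0.13 for all rows tested. The number of genes with an exact p under 0.05 was then 0 as well, where 8.13% of all rows were higher and 0.859% lower by that rule. The smallest p was 0.0857 (Eng), where 4 against 4 can give 0.0286.

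**Figure D1:**
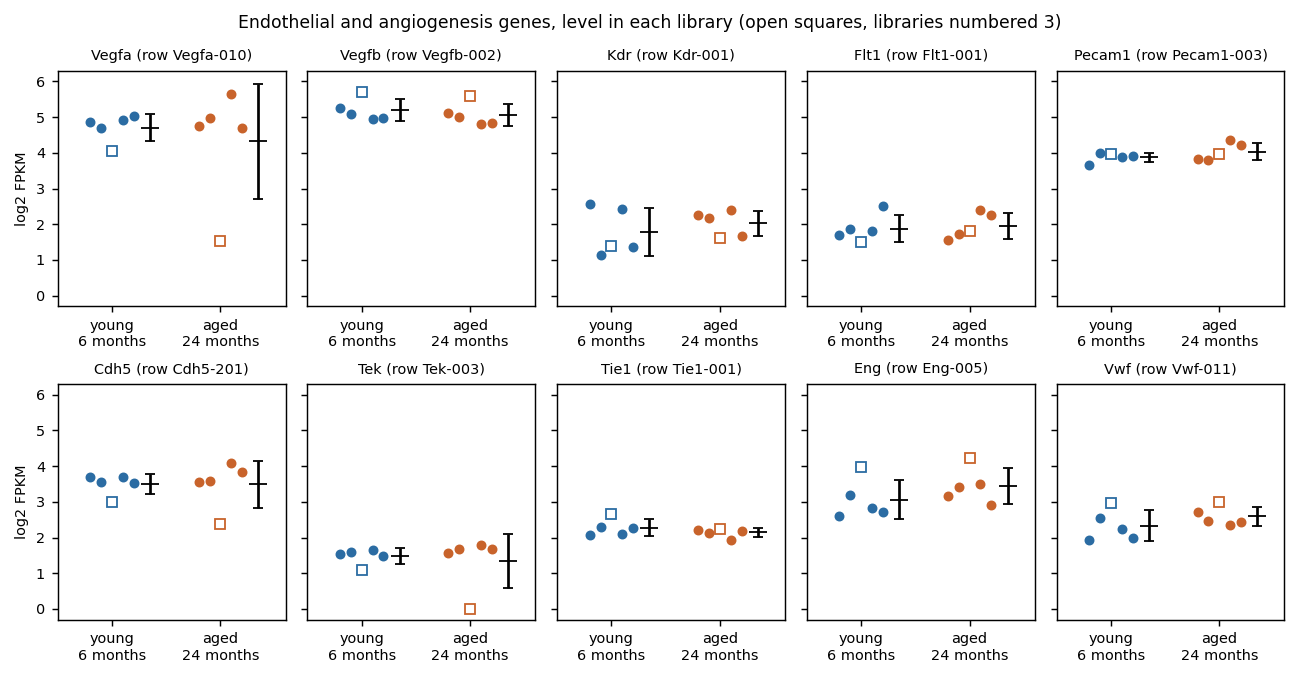
Level of each of the 10 genes in log2 FPKM (vertical axis) for 5 young and 5 aged libraries, 1 panel for each gene at its row of highest mean. Filled circles are libraries, open squares are the libraries numbered 3, and bars are the mean and SD of 5. Aged library 3 lies far below the rest for Vegfa, Cdh5 and Tek, and above the other aged libraries for Vegfb, Eng, Vwf and, by little, Tie1.

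The ligands were the most abundant of the 10 genes at the rows of highest mean. Vegfa (row Vegfa-010, 654 bases) had log2 FPKM values of 4.85, 4.69, 4.06, 4.92 and 5.02 in young libraries 1 to 5 and of 4.75, 4.99, 1.53, 5.64 and 4.71 in aged libraries 1 to 5. Aged library 3 was the lowest of the 10 by far, aged library 4 was the highest, and the other 8 lay within 1 log2 unit of each other. The young mean was 4.71 ± 0.38 and the aged mean 4.32 ± 1.61 (SD, n = 5 each), which is a log2 difference of -0.38 with a limma SE of 0.66 (exact permutation p = 0.81). Without both libraries numbered 3, the sign turned, and the log2 difference was 0.15 (exact permutation p = 0.714). The long coding row Vegfa-001 (3451 bases), which reaches the gene's 3′ end, gave a log2 difference of -0.15 with a limma SE of 0.35 (exact permutation p = 0.841).

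Vegfb (row Vegfb-002, 1158 bases), the ligand of Flt1 alone among these receptors, had log2 FPKM values of 5.25, 5.10, 5.69, 4.94 and 4.97 in young and of 5.11, 4.99, 5.58, 4.81 and 4.84 in aged libraries 1 to 5. Here both libraries numbered 3 were the highest of their groups, the reverse of Vegfa, and the groups overlapped. The means of 5.19 ± 0.31 in young and 5.06 ± 0.31 in aged muscle (SD, n = 5 each) gave a log2 difference of -0.13 with a limma SE of 0.21 (exact permutation p = 0.532). The aged library was lower in 5 of 5 pairs of the same number (exact sign-flip p = 0.0625, the smallest that 5 pairs can give). A further row of the gene, Vegfb-003, is annotated as a retained intron of 460 bases (chr19:6986394-6987140, minus strand, GRCm38) that ends 3921 bases before the 3′ end, and is singled out here after its values were seen. Its log2 FPKM was 4.45, 4.29, 4.71, 4.17 and 4.23 in young and 4.08, 3.99, 3.13, 4.13 and 3.75 in aged libraries. All aged values lay below all young values, with a log2 difference of -0.55 over 10 libraries and -0.30 without both numbered 3 (exact permutation p = 0.00794 and 0.0286, the smallest that 5 against 5 and 4 against 4 can give). It was 1 of the 45 tested rows of the 10 genes with an exact p under 0.05, where 5.16% of all rows were higher and 1.28% lower by that rule, and its limma adjusted p was 1.00.

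The 2 receptors of these ligands were low and varied from mouse to mouse. Kdr (row Kdr-001, 5924 bases, 300 to 826 reads), the main signaling receptor of Vegfa, had log2 FPKM values of 2.58, 1.15, 1.38, 2.42 and 1.35 in young and of 2.25, 2.17, 1.62, 2.39 and 1.67 in aged libraries. Young libraries 1 and 4 were the highest of all and the other 3 young libraries were the lowest, so that all 5 aged values lay between them. The means of 1.78 ± 0.67 in young and 2.02 ± 0.35 in aged muscle (SD, n = 5 each) gave a log2 difference of 0.25 with a limma SE of 0.32 (exact permutation p = 0.476).

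Flt1 (row Flt1-001, 6895 bases), which takes up Vegfa and Vegfb, had log2 FPKM values of 1.71, 1.85, 1.5, 1.80 and 2.52 in young and of 1.55, 1.73, 1.81, 2.39 and 2.27 in aged libraries. Young library 5 and aged libraries 4 and 5 were high, and the other 7 lay between 1.5 and 1.85. The means of 1.88 ± 0.38 in young and 1.95 ± 0.36 in aged muscle (SD, n = 5 each) differed by 0.07 on the log2 scale with a limma SE of 0.24 (exact permutation p = 0.81). Row Flt1-002 (6292 bases) has 13 exons and 688 codons in its annotation, against 30 exons and 1333 codons for Flt1-001, and ends 73555 bases before the gene's 3′ end. This is the layout of the soluble receptor, a secreted form that binds ligand and cannot signal. Its log2 FPKM was 1.08, 1.42, 0.94, 1.02 and 2.27 in young and 1.10, 1.34, 1.36, 1.97 and 1.72 in aged libraries. The same 3 libraries were high, and the log2 difference between the ages was 0.15 (exact permutation p = 0.611). Reads in the exons that both rows share count for both, so the rows are not separate measurements of the forms.

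The angiopoietin receptor Tek and its partner Tie1 were also low. Tek (row Tek-003, 4176 bases) had log2 FPKM values of 1.55, 1.6, 1.08, 1.66 and 1.49 in young and of 1.58, 1.67, 0, 1.80 and 1.67 in aged libraries. Library 3 was the lowest of each group, in aged muscle under the listing floor, and without that pair the 8 values spanned 1.49 to 1.80. The means of 1.48 ± 0.23 in young and 1.34 ± 0.76 in aged muscle (SD, n = 5 each) gave a log2 difference of -0.13 with a limma SE of 0.33 (exact permutation p = 0.968). It turned to 0.11 without both libraries numbered 3 (exact permutation p = 0.143). Tie1 (row Tie1-001, 4091 bases) had log2 FPKM values of 2.06, 2.30, 2.65, 2.10 and 2.26 in young and of 2.22, 2.12, 2.25, 1.94 and 2.19 in aged libraries. Young library 3 was the highest, and the rest lay between 1.94 and 2.30. The means of 2.27 ± 0.23 in young and 2.14 ± 0.12 in aged muscle (SD, n = 5 each) differed by -0.13 with a limma SE of 0.16 (exact permutation p = 0.325). A span of 2 SE on either side reached from -0.44 to 0.18, the narrowest of the 10 genes.

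Eng is a coreceptor for BMP9 and BMP10 on endothelial cells. Its difference was the largest positive one at the rows of highest mean, but not at the full-length coding rows, where those of Kdr (0.25) and Vwf (0.23) on the log2 scale were larger than that of Eng. In row Eng-005 (715 bases, 89 to 428 reads) the log2 FPKM values were 2.61, 3.18, 3.96, 2.83 and 2.72 in young and 3.16, 3.40, 4.24, 3.51 and 2.91 in aged libraries. Library 3 was the highest of each group, and the aged library was the higher in 5 of 5 pairs of the same number (exact sign-flip p = 0.0625). The means of 3.06 ± 0.55 in young and 3.44 ± 0.50 in aged muscle (SD, n = 5 each), 1.31-fold higher in aged muscle, gave a log2 difference of 0.38 with a limma SE of 0.31 (exact permutation p = 0.286). Single libraries moved it, to 0.19 without aged library 3 (exact permutation p = 0.571) and to 0.61 without young library 3 (exact permutation p = 0.0556). The full-length coding row Eng-001 (3422 bases, 375 to 977 reads) gave a smaller log2 difference of 0.21 with a limma SE of 0.19 (exact permutation p = 0.278), and the aged library was the higher in 4 of 5 pairs. With the replicate number as a block (the replicate block), limma gave Eng-005 an SE of 0.14 and an unadjusted p of 0.0297 and an adjusted p of 0.577. It was 1 of the 10 genes under 0.05, where 6.78% of all rows were higher and 1.4% lower by that rule in the blocked fit. Its unadjusted limma p was 0.0422 without both libraries numbered 3, where 11.5% of all rows were higher by that rule, and 0.0485 without young library 3, where 4.7% were higher and 0.594% lower.

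The junction and surface proteins Pecam1 and Cdh5 had the highest levels after the ligands at the rows of highest mean. Pecam1 (row Pecam1-003, 3283 bases, 846 to 1798 reads), an adhesion molecule at contacts between endothelial cells, had log2 FPKM values of 3.66, 3.98, 3.95, 3.87 and 3.92 in young and of 3.82, 3.81, 3.97, 4.37 and 4.21 in aged libraries. Aged libraries 4 and 5 were above all young libraries and the other 3 aged libraries lay within the young range. The means of 3.88 ± 0.13 in young and 4.03 ± 0.25 in aged muscle (SD, n = 5 each) differed by 0.16 on the log2 scale, 1.11-fold, with a limma SE of 0.16 (exact permutation p = 0.278). A span of 2 SE on either side reached from -0.16 to 0.47.

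Cdh5 (row Cdh5-201, 3986 bases by its whole reads), the cadherin of endothelial junctions, largely restricted to endothelial cells, had log2 FPKM values of 3.69, 3.56, 3.00, 3.70 and 3.53 in young and of 3.54, 3.60, 2.38, 4.09 and 3.83 in aged libraries. Library 3 was the lowest of each group and aged library 4 the highest of all. The means of 3.50 ± 0.29 in young and 3.49 ± 0.66 in aged muscle (SD, n = 5 each) differed by -0.01 on the log2 scale with a limma SE of 0.30 (exact permutation p = 0.984), and by 0.14 without both libraries numbered 3 (exact permutation p = 0.343).

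Vwf, stored in endothelial cells and platelets and released to bind platelets at a wound, was described by rows of very different reach. Row Vwf-011 (2686 bases) covers the last part of the gene and is annotated as subject to nonsense-mediated decay with an incomplete start. Its log2 FPKM was 1.94, 2.54, 2.97, 2.24 and 1.99 in young and 2.73, 2.47, 3.00, 2.36 and 2.42 in aged libraries. Both libraries numbered 3 were the highest, and young libraries 1, 4 and 5 were below all aged libraries. The means of 2.33 ± 0.43 in young and 2.60 ± 0.26 in aged muscle (SD, n = 5 each) differed by 0.26 on the log2 scale with a limma SE of 0.23 (exact permutation p = 0.278). The full-length row Vwf-001 (8834 bases) gave a log2 difference of 0.23 with a limma SE of 0.16 (exact permutation p = 0.127).

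**Figure D2:**
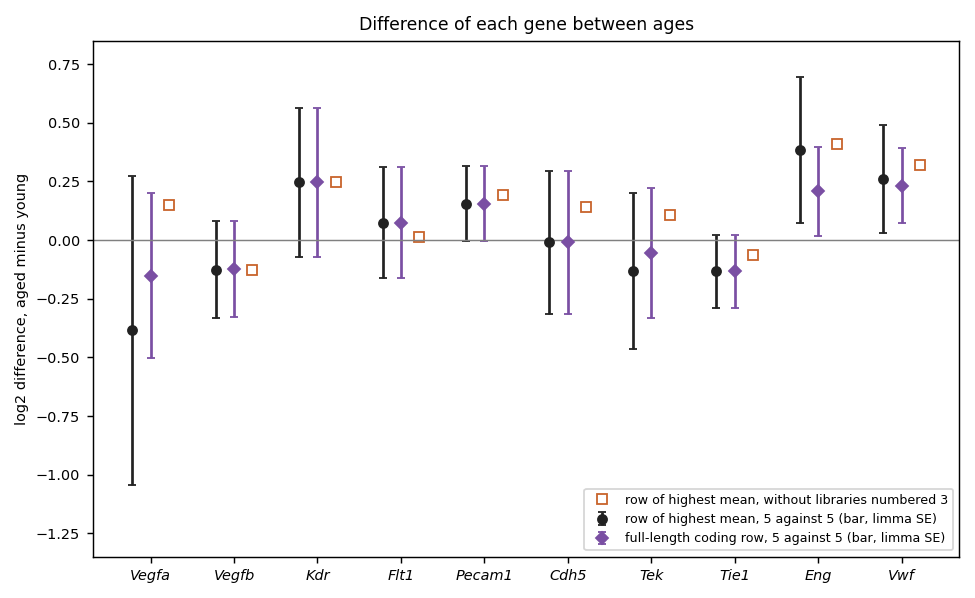
Log2 difference of each of the 10 genes, aged minus young (vertical axis), at the row of highest mean (black circles) and at the full-length coding row (purple diamonds) with limma SE bars, and at the row of highest mean without both libraries numbered 3 (open squares). Vegfa and Tek lie below 0 with all libraries and above 0 without that pair, and Cdh5 moves from -0.01 to 0.14.

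Blood cells could contribute to Pecam1, Eng and Vwf, and fewer cells of a type cannot be told apart from less RNA per cell in whole muscle. The summed FPKM of 7 leukocyte markers was 11.6 to 27.4 in young and 21 to 96.1 in aged libraries. Lyz2 made up most of that sum in every library, and Ptprc, Emr1 and Itgam were listed above 0 in aged library 4 only. Aged library 4 had the highest leukocyte sum, and also the highest Pecam1, Vegfa, Cdh5 and Tek and the highest sum of the other endothelial genes. The same library had the lowest Tie1 (1.94) and Vegfb (4.81) of all libraries on the log2 scale. For Vwf it was the lowest aged library at row Vwf-011 (2.36) and the highest of all at row Vwf-001 (1.87). Of the 5 platelet markers, 3 (Itga2b, Gp9 and Ppbp) were listed at 0 in every library, and the summed FPKM of the list was 2.06 to 4.29 in young and 3.70 to 13.3 in aged libraries, highest in aged library 3. That sum was Pf4 alone except in aged library 3, where Gp1bb was also listed above 0. Red blood cell markers summed to 170 to 381 FPKM in young and to 180 to 729 FPKM in aged libraries. The part of these cells in the values of Pecam1, Eng and Vwf was not tested.

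By mean level in young muscle, the order was Vegfb, Vegfa, Pecam1, Cdh5, Eng, Vwf, Tie1, Flt1, Kdr and Tek. At the full-length coding rows the young order was the same, except that Vwf, at a mean log2 FPKM of 1.34 in row Vwf-001, was last, below Tek at 1.37. FPKM is scaled by transcript length, so these levels can be compared between genes, with the reservation that the rows differ in how much of the gene they cover. Of the 9 neighboring pairs in the order at the rows of highest mean, 4 differed by less than the larger of both SDs in young muscle, namely Cdh5 and Eng, Vwf and Tie1, Flt1 and Kdr, and Kdr and Tek. At these rows the order of means in aged muscle was the same, except that Kdr stood above Flt1. At the full-length coding rows, aged Pecam1 (3.97) also stood above Vegfa (3.92), and Vwf (1.58) above Tek (1.32). Vegfb was above Vegfa in 8 of 10 libraries, and Flt1 was above Kdr in 5 of 10.

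Ratios within a library remove what moves both genes alike. Of 10 ratios compared, 0 differed between the ages with an exact permutation p under 0.05, with p between 0.23 and 0.992, and so did 0 without both libraries numbered 3, with a smallest p of 0.257. The log2 ratio of Flt1 to Kdr, the decoy-like receptor over the signaling one, was 0.10 ± 0.86 in young and -0.07 ± 0.51 in aged muscle (SD, n = 5 each, exact permutation p = 0.714). It varied between mice of one age, from -0.87 in young library 1 to 1.17 in young library 5. The log2 ratio of Vegfa to Vegfb was -0.48 ± 0.68 in young and -0.74 ± 1.90 in aged muscle (SD, n = 5 each, exact permutation p = 0.881). The aged mean rested on aged library 3, at -4.05, and the difference between the ages, -0.26, turned to 0.28 without both libraries numbered 3 (exact permutation p = 0.457). The steadiest ratio was that of Tek to Cdh5, at -2.02 ± 0.09 in young and -2.14 ± 0.20 in aged muscle (SD, n = 5 each) on the log2 scale, a difference of -0.12 (exact permutation p = 0.23). In aged library 3 Tek was at the listing floor, so that its ratio there was not measured, and the difference was -0.062 without that library and -0.038 without both libraries numbered 3 (exact permutation p = 0.444 and 0.657).

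The low values of aged library 3 varied with the part of a gene that a row covers, though not alike in every gene. Of the 45 rows of the 10 genes with a mean FPKM of at least 1, 38 matched an annotated transcript by length. Among 21 rows that end over 1000 bases before the gene's 3′ end, aged library 3 was below the other 4 aged libraries in 19, and 9 of the 21 were listed at 0 there. Its median distance from the mean of the other 4 was -1.85 on the log2 scale. The 1 row between (Tek-003, 294 bases) was listed at 0. Among 16 rows that end within 50 bases of the 3′ end, it was below the others in 6, within their range in 5 and above them in 5, with a median distance of -0.08. Rows of 1 gene share reads, so these counts are a description.

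Pecam1 shows this within 1 gene. In aged library 3 its row Pecam1-003, which ends at the gene's 3′ end, was at a log2 FPKM of 3.97, within the 3.81 to 4.37 of the other aged libraries. Row Pecam1-002, ending 7580 bases upstream, was at 1.65 against 3.49 to 4.14, and row Pecam1-006, ending 34566 bases upstream, was listed at 0 against 3.61 to 4.11. Tie1 behaved alike, with Tie1-001 at 2.25 against 1.94 to 2.22 and Tie1-003, ending 6841 bases upstream, listed at 0 against 1.73 to 1.91. Flt1 was mixed. Flt1-001 at the 3′ end and Flt1-002, ending 73555 bases upstream, both stood at a log2 distance of -0.17, within the other aged libraries. Flt1-003, Flt1-004 and Flt1-005 were listed at 0.

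In Vwf the sign changed along the gene. The short end row Vwf-006 (456 bases) was 2.49 above the other aged libraries on the log2 scale, Vwf-011 was 0.50 above, the full-length Vwf-001 was 0.31 below (a distance of -0.31), and Vwf-007, which ends 43755 bases upstream, was listed at 0. In young library 3 the same rows stood at 1.57, 0.80, 0.12 and at most -0.61 from the other young libraries, as Vwf-007 was listed at 0 there too. The order of the 4 rows was thus the same in both libraries numbered 3.

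In Vegfa, Tek and Kdr the rows at the 3′ end were low in aged library 3 too, Kdr-001 at a log2 distance of -0.50 from the other aged libraries. Tek-001 was at a distance of -1.32 from the other aged libraries on the log2 scale, Tek-002 was also below them, and every row of Vegfa was low, by different amounts. The Vegfa rows that reach the 3′ end, Vegfa-001 and Vegfa-008, were at distances of -1.73 and -1.48 on the log2 scale. Vegfa-010 and Vegfa-002, which end 1838 and 8203 bases upstream, were at -3.49 and -3.93. With 60 reads in Vegfa-010 and 15 in Vegfa-002 there, the values of this library are also the least precise. The state of the RNA in this library was not tested.

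**Figure D3:**
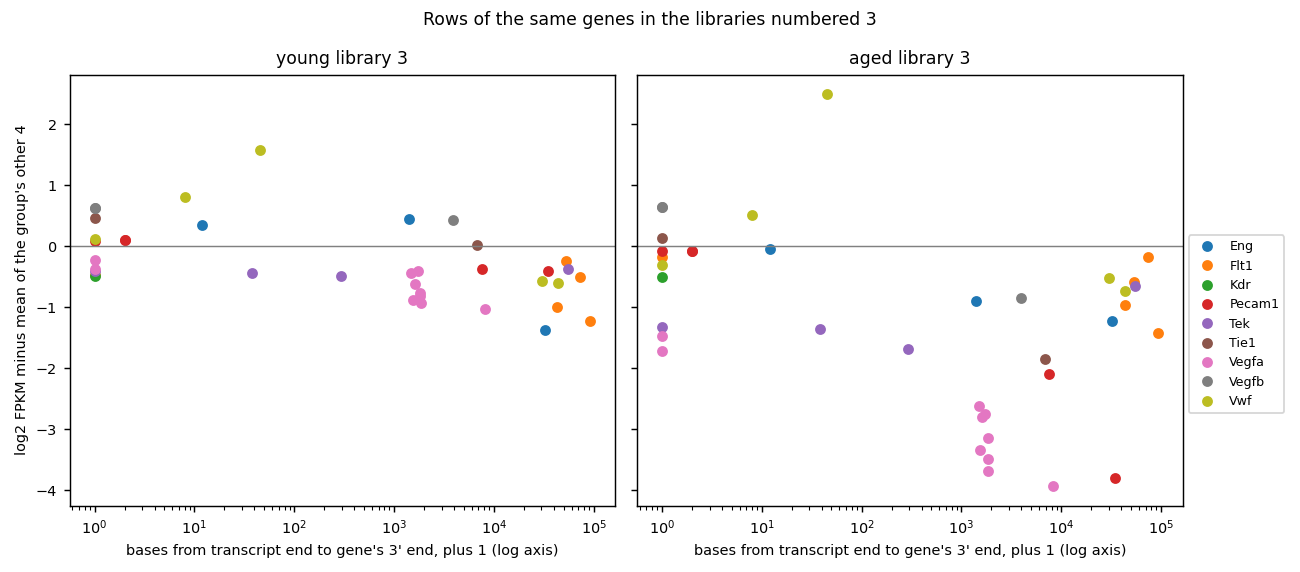
Log2 FPKM of young library 3 (left) and aged library 3 (right) minus the mean of the other 4 libraries of the group, for 38 rows of 9 of the genes, against the distance in bases from the end of the row's transcript to the gene's 3′ end plus 1 (log axis). Colors are genes. In aged library 3 the 21 rows that end over 1000 bases upstream all lie below 0, with a median of -1.85, while rows at the 3′ end lie on both sides.

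Other genes of the same pathways were examined from 16 lists written by hand, at the row of highest mean, with 95 genes tested beside the 10. limma gave 9 of the 95 an unadjusted p under 0.05 higher in aged muscle and 0 lower, where 3.89% and 0.738% of all rows passed, and gave 0 an adjusted p under 0.05. With the replicate block the count was 18 higher (18.9%), where 6.78% of all rows were higher. Without both libraries numbered 3 it was 15 higher (15.8%) and 1 lower, where 11.5% of all rows were higher and 1.1% lower and 72.1% had a higher aged mean. The median log2 difference of the 95 genes was 0.12, beside 0.03 for all rows tested. Of the 9, 3 were immediate early genes and 2 were leukocyte markers. Among them, Cd68 and Fos were at or near the listing floor in young libraries and met the filter through aged libraries. Unless stated, the calls of single lists below are from the fit without the replicate block, and the genes that it added are not named.

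Among the other VEGF ligands, Vegfc was listed at 0 in every library and 1 of 3 was tested. This was Figf (VEGF-D), with a log2 FPKM of 0.31 in young and 1.14 in aged muscle, a difference of 0.83 with a limma SE of 0.50 (exact permutation p = 0.103). Its value in aged library 5 was 3.16, and the other aged libraries ran from 0.22 to 1.08. Of the other receptors, Flt4 was listed at 0, and the coreceptors Nrp1 and Nrp2 differed by 0.37 and 0.39 on the log2 scale with limma SEs of 0.19 and 0.18 (exact permutation p = 0.0635 and 0.0238). Neither had a limma p under 0.05, and without both libraries numbered 3 that of Nrp2 was 0.0184. Nrp2 lay near the listing floor, at a log2 FPKM of 0.075 in young and 0.47 in aged muscle. It met the filter through aged libraries. In the angiopoietin list, beside Tek and Tie1, Angpt2 and the phosphatase Ptprb, which also stands in the endothelial list, were tested and 0 passed. Angpt2, the ligand that endothelial cells release to loosen the vessel wall, had a log2 FPKM of 0.24 in young and 0.72 in aged muscle, with a limma SE of 0.28 for the difference of 0.48 (exact permutation p = 0.111). Its values in aged libraries ran from 0 in library 3 to 1.59 in library 4. Without both libraries numbered 3, its log2 difference was 0.72, with an unadjusted limma p of 0.0173 (exact permutation p = 0.0286, the smallest that 4 against 4 can give).

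Other genes of the endothelium were taken from a list of 27. Of these, 23 were tested, and without the replicate block 0 passed an unadjusted limma p under 0.05 in either direction. The median log2 difference was 0.07, and 0.14 without both libraries numbered 3. Means were higher in aged muscle in 17 of the 23, and in 55.1% of all rows tested. The summed FPKM of the list was 238 to 300 in young and 271 to 324 in aged libraries. The 3 smallest p values belonged to the tight-junction gene Cldn5, the nitric oxide synthase Nos3 and Ecscr, with log2 differences of 0.67, 0.32 and 0.37 and limma SEs of 0.35, 0.17 and 0.21. For all 3, the aged library was the higher in each pair of the same number, and their p with the replicate block is not given here. Of 6 Notch genes tested, 0 passed, and the ligand Dll4 differed by 0.31, and the targets Hey1 and Hes1 by 0.24 and 0.29 on the log2 scale.

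In the list of endoglin and BMP signaling, 1 of 9 genes passed and 8 of 9 means were higher in aged muscle, as were 55.1% over all rows tested, with a median log2 difference of 0.22. Id1, a target gene of BMP signals in endothelial and muscle cells, had a log2 FPKM of 2.97 in young and 3.93 in aged muscle, with a limma SE of 0.31 for the difference of 0.97 (exact permutation p = 0.0159, and 0.0571 without both libraries numbered 3). Its relative Id3 differed by 0.84 with a limma SE of 0.39, and the inhibitory Smad7 by 0.63 with a limma SE of 0.35, neither with a limma p under 0.05. The summed FPKM of this list was 30.8 to 42.4 in young and 46.0 to 76.9 in aged libraries, without overlap. Of single rows 1.54% did not overlap, a share that is not a background for the sum of a list. Id1 and Id3 made up much of that sum, and the other 8 genes of the list summed to 14.0 to 20.04 in young and 10.5 to 32.03 in aged libraries, with overlap. Without both libraries numbered 3, 4 of the 9 passed (Id1, Id3, Smad7 and Tgfbr2), where 11.5% of all rows were higher by that rule.

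In the list of hypoxia and VEGF transcription control, 1 of 9 tested passed. Egln3, a prolyl hydroxylase that marks hypoxia-inducible factors for breakdown and is itself induced by them, had a log2 FPKM of 1.74 in young and 2.94 in aged muscle, with a limma SE of 0.41 for the difference of 1.21 (exact permutation p = 0.0476, and 0.0857 without both libraries numbered 3). Esrra and Egln2 had log2 differences of -0.45 and -0.29 with limma SEs of 0.23 and 0.19, and did not pass. Without both libraries numbered 3 these differences were -0.23 and -0.11. The median of the list was -0.01.

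Among 9 genes of antiangiogenic factors and vessel matrix, 1 passed. Thbs1 (thrombospondin 1), an inhibitor of vessel growth that platelets and other cells also release, had a log2 FPKM of 0.78 in young and 2.49 in aged muscle, with a limma SE of 0.41 for the difference of 1.70. All aged values lay above all young values (exact permutation p = 0.00794). The basement membrane collagen Col4a2 had a log2 difference of -0.37 with a limma SE of 0.21, and Timp3 one of 0.24 with a limma SE of 0.14, neither with a limma p under 0.05. Timp3 had an exact permutation p of 0.0397, and 0.0857 without both libraries numbered 3. The median log2 difference of the list was -0.21, and -0.042 without that pair.

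Of 10 genes of pericytes and vascular smooth muscle, 1 passed. Anpep, an aminopeptidase of pericytes and also of some blood and connective tissue cells, had a log2 FPKM of 0.43 in young and 1.04 in aged muscle, with a limma SE of 0.20 for the difference of 0.61 (exact permutation p = 0.00794). Pdgfb and Pdgfrb, the ligand and receptor that tie pericytes to vessels, had log2 differences of 0.48 and -0.22 with limma SEs of 0.23 and 0.16. The median of the list was 0.01, and 0.080 without both libraries numbered 3.

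The remaining lists mark other cells and states. None of the 4 leukocyte adhesion molecules of activated endothelium was tested. Their summed FPKM was 0 in all young libraries and up to 5.50 in aged ones, where Icam1 and Vcam1 were listed above 0. Of 2 lymphatic genes tested, Pdpn and Lyve1, 0 passed, with log2 differences of 0.28 and 0.29. Of 3 leukocyte genes tested, Cd68 and Lyz2 passed, with log2 differences of 1.41 and 1.22 and limma SEs of 0.38 and 0.39, and Csf1r differed by 0.60 without passing. Cd68 had a log2 FPKM of 0.06 in young muscle, near the listing floor, and of 1.47 in aged muscle. The platelet gene Pf4 differed by 0.62 with a limma SE of 0.34, and the hemoglobin genes Hba-a1, Hba-a2 and Hbb-b2 by 0.40, 0.38 and 0.26, and 0 of these passed. Without both libraries numbered 3, the differences were 0.39 (Pf4), 0.21 (Hba-a1), 0.19 (Hba-a2) and 0.25 (Hbb-b2). Of 8 muscle fiber genes 0 passed, and Myh4, Mb and Tnnt3 had log2 differences of -0.27, 0.62 and -0.25. Without both libraries numbered 3 that of Tnnt3 was -0.13, and those of Myh4 and Mb were -0.32 and 0.64. Myh4, the main fast myosin of this muscle, had an exact permutation p of 0.0238, and without both libraries numbered 3 a limma p of 0.0266 and an exact permutation p of 0.0286. Of 7 immediate early genes, Junb, Fos and Ier2 passed, with log2 differences of 2.35, 2.02 and 1.33 and limma SEs of 0.40, 0.58 and 0.58. Fos had a log2 FPKM of 0.23 in young muscle, near the listing floor, and of 2.26 in aged muscle. Ier2 had an exact permutation p of 0.0794 and did not pass without both libraries numbered 3, where its log2 difference was 0.98 (limma p = 0.0703). Atf3 did not pass with all libraries and passed there, where its log2 difference went from 0.85 to 1.26 (exact permutation p = 0.0952 and 0.0286). Immediate early RNA can rise within minutes of handling, and its part in the other differences was not tested.

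**Figure D4:**
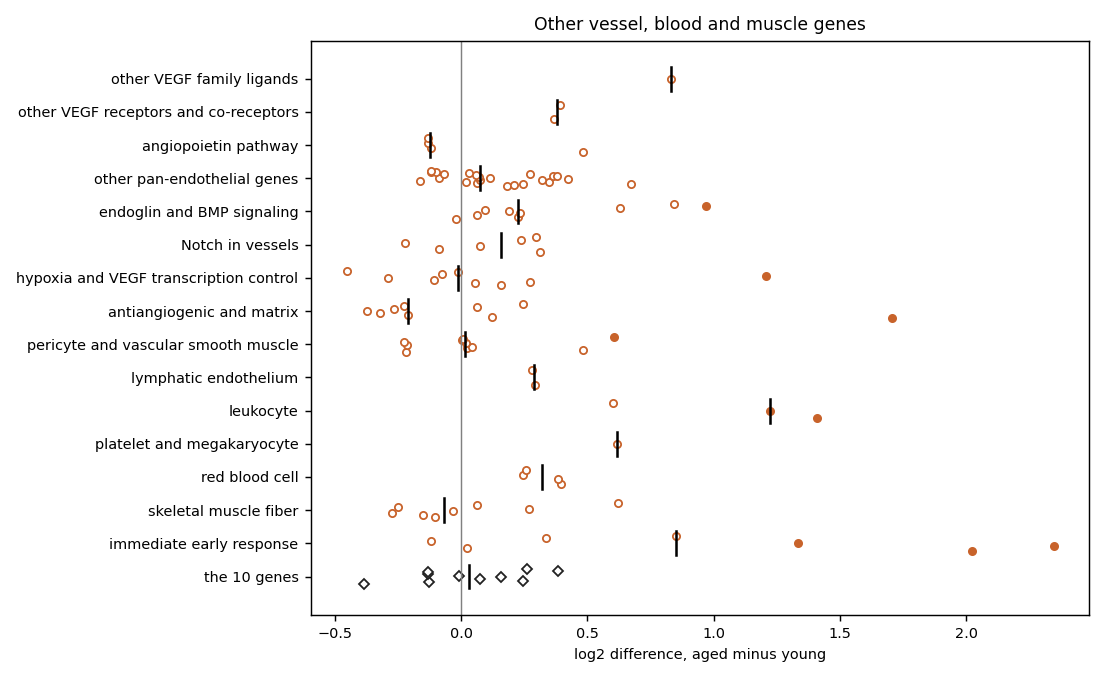
Log2 difference, aged minus young (horizontal axis), of every tested gene of 15 lists (circles; 1 list had no tested gene) and of the 10 genes (diamonds, bottom). Filled circles had an unadjusted limma p under 0.05, and black bars are medians. The 10 genes lie between -0.38 and 0.38, none of them filled.

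The genes whose pattern over the 10 libraries was most like each of the 10 are given as a description, over 8592 other genes above 0 in every library. For Cdh5 they included Ubr1 and Klhl24, with Pearson correlations of 0.99 and 0.99, which fell to 0.92 and 0.92 without both libraries numbered 3. For Vegfa they were Bmi1, Zdhhc3 and Insig2, each at 0.99, and for Tek it was Azi2, at 0.99 and at 0.77 without that pair. Eng was most like the endothelial adhesion gene Esam, at 0.98 and 0.93, Kdr was most like the endothelial transcription factor Ets1, at 0.92 and 0.95, and Flt1 was most like Heg1, a receptor of endothelial junctions, at 0.92 and 0.92. Pecam1 was most like Sbno2, at 0.94 and 0.95. Vegfb, Tie1 and Vwf were most like Acot7, Acaa1a and Mpg, at 0.96, 0.93 and 0.97. Between genes of the set, Cdh5 and Tek had a correlation of 0.96 and 0.82 without the pair, whereas Cdh5 and Pecam1 went from 0.25 to 0.77.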

How the data were processed

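Gastrocnemius RNA of 5 young and 5 aged mice was analysed, 1 library for each. Poly-A selected libraries were mapped by the authors to mm10 with TopHat2, and log2 values of FPKM were deposited for each library. The counting program is not given in the sources used here. The methods describe RefSeq genes, while rows carry transcript names. The methods name a different sequencer from the series record.

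Libraries were assigned by the age and number in their titles, and all 10 columns matched. The 10 genes, the lists and the tests were chosen with earlier results of these data known. A gene was taken at its row of highest mean. limma 3.58.1 (R 4.3.3, lmFit and eBayes with default settings) was fitted to 38059 rows with a mean FPKM of at least 1 (0 counted as 0), with Benjamini-Hochberg adjustment over all of them, and checked on simulated data. Two-sided exact permutation tests used all 252 assignments of the libraries, with a smallest p of 0.00794. Nothing in the labels says that numbers pair mice, but the deviations of a young and an aged library from their group means were correlated over the rows tested where both had the same number, at 0.131, 0.332, 0.695, 0.390 and 0.208 for numbers 1 to 5, against a mean of -0.04 for other combinations. They were therefore also compared as pairs.

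From each list, the 3 genes with the smallest unadjusted limma p were named, besides genes that a sentence needs as a marker. The genes most like each of the 10 were those with the highest Pearson correlation over the libraries, 3 for Cdh5 and Vegfa and 1 for the others. For Cdh5, 1 of these is not reported here. The lists covered other VEGF ligands, other VEGF receptors, the angiopoietin pathway, other endothelial genes, endoglin and BMP signaling, Notch, hypoxia control, antiangiogenic factors and matrix, leukocyte adhesion, pericytes and smooth muscle, lymphatic endothelium, leukocytes, platelets, red blood cells, muscle fibers and immediate early genes.

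Whole reads were recovered from the steps of the values. Of the 52 rows of the 10 genes, 48 gave whole reads within 0.02, 41 at the length of a GENCODE M21 transcript (GRCm38) and 7 at another length, and 4 gave no length. Reads describe precision only, and a read shared by rows counts for each. An FPKM of 1 on 1 kb stands for 19.9 to 34.6 reads, and lower levels were not detectable. Scripts ran in Python 3.11.15 (scipy 1.17.1, pandas 2.3.3, numpy 2.4.6, with figures by matplotlib 3.10.9). Alternatives were other filters, pseudocounts and normalizations, each library left out, pairs, other rows of a gene, and a variance trend. The full-length coding row was added after the data were seen.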

Additional observations from a re-analysis of the deposited data

Results flagged for a closer look

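Of 20 groups of 5 values (10 genes at 2 ages), 4 held a library whose gap to the nearest of the others exceeded Dixon's critical value, where chance gives about 1 in 20 for independent groups. All 4 were libraries numbered 3, and all were low. The groups are not independent, because genes of 1 library deviate together. In aged library 3, Vegfa was at a log2 FPKM of 1.53 against 4.71 to 5.64 in the other 4, and Tek was listed at 0 against 1.58 to 1.80. In young library 3, Tek was at 1.08 against 1.49 to 1.66 and Cdh5 at 3.00 against 3.53 to 3.70. Rows of Vegfa, Pecam1, Tie1 and Vwf that end far from the 3′ end were low in aged library 3 as well, as were the rows of Vegfa and Tek that reach the 3′ end, Vegfa-001 at a log2 distance of -1.73 and Tek-001 at -1.32, whereas Vwf-006 at the end of Vwf was high. What sets these libraries apart was not tested.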

How the results depend on the processing

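None of the 10 genes and none of the 10 ratios passed an exact p under 0.05 under any alternative run, pairs aside, where 5 cannot give one. With 1 library left out, 91 of 100 differences and 86 of 100 ratios kept their sign. Under the other alternatives 94 of 99 differences and 77 of 83 ratios did. The full-length coding row turned no sign, but for Kdr, Flt1, Tie1 and Cdh5 it was the same row and could turn none. For Cdh5 no annotated row matched. The replicate block leaves each difference as it is, so it could turn no sign either. Ranges below are over the 10 fits that leave out 1 library each.

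Without both libraries numbered 3, log2 differences turned to 0.15 (Vegfa), 0.14 (Cdh5) and 0.11 (Tek), and the ratios Vegfa to Vegfb and Flt1 to Cdh5 to 0.28 and -0.13. Genes with a higher aged mean were then 8, genes with an unadjusted limma p under 0.05 were 1, list genes were 15 higher and 1 lower, rows with an adjusted p under 0.05 were 11, and rows past the 2-fold criteria in the lower direction were 7. From means of FPKM, the differences were 0.037 (Vegfa) and 0.071 (Cdh5), and 20 rows were lower by the criteria. The ratio Tie1 to Tek was 0.15 with log2 of FPKM plus 1, 0.044 with median-of-ratios rescaling and 0.0051 with quantile normalization, and Flt1 to Kdr was 0.056 at the row of second highest mean.

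With 1 library left out, log2 differences ranged from -0.71 to 0.31 (Vegfa), -0.036 to 0.23 (Flt1), -0.16 to 0.27 (Cdh5) and -0.25 to 0.20 (Tek), with the highest values of Vegfa, Cdh5 and Tek without aged library 3. With no turn in sign, they ranged from 0.19 to 0.61 (Eng), 0.089 to 0.45 (Kdr), -0.25 to -0.00028 (Vegfb), 0.072 to 0.21 (Pecam1), -0.19 to -0.039 (Tie1) and 0.16 to 0.42 (Vwf). Ratios ranged from -0.41 to 0.10 (Flt1 to Kdr), -0.65 to 0.57 (Vegfa to Vegfb), -0.36 to 0.19 (Tie1 to Tek), and, over Cdh5, -0.094 to 0.31 (Pecam1), -0.16 to 0.24 (Flt1), -0.43 to 0.094 (Tie1), -0.080 to 0.74 (Eng) and -0.11 to 0.55 (Vwf). Genes with a higher aged mean ranged from 4 to 8 and those with an unadjusted limma p under 0.05 from 0 to 1. List genes ranged from 8 to 16 higher (9 with all libraries) and from 0 to 2 lower. Rows with an adjusted p under 0.05 (3 higher and 0 lower with all libraries) ranged from 0 to 23, the most without aged library 3, and rows lower by the criteria (35) from 12 to 47.

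Compared in pairs with the replicate block, 1 of the 10 genes (Eng) had an unadjusted limma p under 0.05, 18 list genes were higher, 0 rows had an adjusted p under 0.05 and 18 rows were lower by the criteria. With rows above 0 in every library, the counts were 5 by adjusted p and 104 higher and 23 lower by the criteria (218 higher with all rows). log2 of FPKM plus 1 gave 5 by adjusted p, and median-of-ratios rescaling and quantile normalization gave 0. List genes lower were 1 with no filter, with both normalizations and with a variance trend. The cause of these shifts was not tested. Levels under an FPKM of 1 were not detectable, and Tek met that limit in aged library 3.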
